A study of Mus musculus with 6 samples.

Results

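The genes described here encode 9 enzymes, cofactors and carriers that make, export and oxidise the acylceramides of the epidermal barrier: Cyp4f39, Cers3, Abhd5, Pnpla1, Ugcg, Abca12, Alox12b, Aloxe3 and Sdr9c7. They were chosen by gene symbol from the authors' table of 19618 genes. Each symbol matched 1 row, and all 9 passed the filter on low counts that left 15422 genes tested. RNA sequencing had been done on tail-skin keratinocytes of mice aged 4 months, with 3 libraries from Gpr161 epidermal knockout mice and 3 from control mice. The knockout mice carried the K14cre transgene, in which a keratin 14 promoter drives Cre recombinase in basal keratinocytes and their progeny, with both copies of Gpr161 floxed. The controls carried no K14cre per their labels; in 1 of them both copies of Gpr161 were floxed and in the other 2 a single copy, so Cre itself differs between the groups along with the deletion. The knockout libraries bear the tags DE679, DE685 and DE688 in the table, and the control libraries DE680, DE684 and DE689. These tags match no sample title, so which control had both copies floxed is not known, and the labels do not say whether a library is 1 mouse. P-values therefore measure the spread between these libraries.

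Acylceramides are very long ceramides that carry a linoleic acid on the far end of their fatty acid, and they are made in the upper, differentiating layers of the epidermis. They are packed into lamellar bodies as glucosylated precursors, released between the corneocytes, oxidised at the linoleate, and then bound to the proteins of the cornified envelope as a lipid coat that keeps water in the skin. Loss of several of these genes in humans is known to cause inherited ichthyosis, a scaling disorder of the skin.

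Total estimated counts were 17157864 to 25344399 per library, and a member had 565 to 3673 counts in a library, so counting error was small for each. Labels were checked on Gpr161 itself and on Gli1 and Ptch1, targets of the Hedgehog pathway that the receptor Gpr161 restrains. For Gpr161 the log2 change was −0.13 (SE 0.11, edgeR adjusted p 0.553), and whole-gene counts do not show whether the floxed exons were missing. Gli1 rose by 2.93 (SE 0.10, edgeR adjusted p 1.77e-05) and Ptch1 by 1.58 (SE 0.13, edgeR adjusted p 0.00228) on the log2 scale. Hhip, another Hedgehog target, named after its values were seen, had a change of −0.02 (SE 1.12, edgeR adjusted p 0.996) and ranged from 2.06 to 114 CPM in the controls. Keratinocyte identity was plain: Krt5 had 11196 to 15700.2 CPM and Krt10 12432 to 25272 CPM, where CPM is a read count brought to a common library size and scaled by TMM, the trimmed mean of M values. DE684 and DE685 held Y-linked transcripts and the other libraries Xist, so each group had 1 library of the first kind and 2 of the second.

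All 9 members had a negative fitted log2 fold change, knockout over control, and 2 of them fell by the test: Alox12b, a lipoxygenase of the oxidation step, and Abca12, the lipid carrier of lamellar bodies. The test was the edgeR quasi-likelihood test with Benjamini-Hochberg adjustment over all 15422 genes, and a gene was called at an adjusted p under 0.05. Of the genes tested, 0.357% were called lower and 1.24% higher, and 50.7% had a negative change. The 9 changes ran from −0.55 to −0.10 with a median of −0.37, against a median of −0.0036 for all genes. In 7 members every knockout library was below every control library. That pattern was seen in 12.8% of all genes tested. An unadjusted p under 0.05 with a lower level in the knockout was found for 7 members and 9.1% of all genes. The DESeq2 Wald test called 4 members, Alox12b, Abca12, Ugcg and Sdr9c7, and 2.14% of all genes lower. An edgeR fit with sex as a covariate, read from Xist and Y-linked genes, called these 4 and Cers3, beside 0.713% of all genes. The same 5 members, beside 1.55% of all genes, were called lower by an edgeR fit with a block of libraries with neighbouring tags. This block was an alternative added after seeing the data, since no label states that these tags mark pairs. Its calls, here and below, are therefore no separate support. The sum of CPM over the 9 genes was 584 to 599.9 in the knockout libraries and 694 to 751 in the controls. In bulk RNA, fewer cells of the granular layer and less RNA per cell cannot be told apart.

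**Figure D1:**
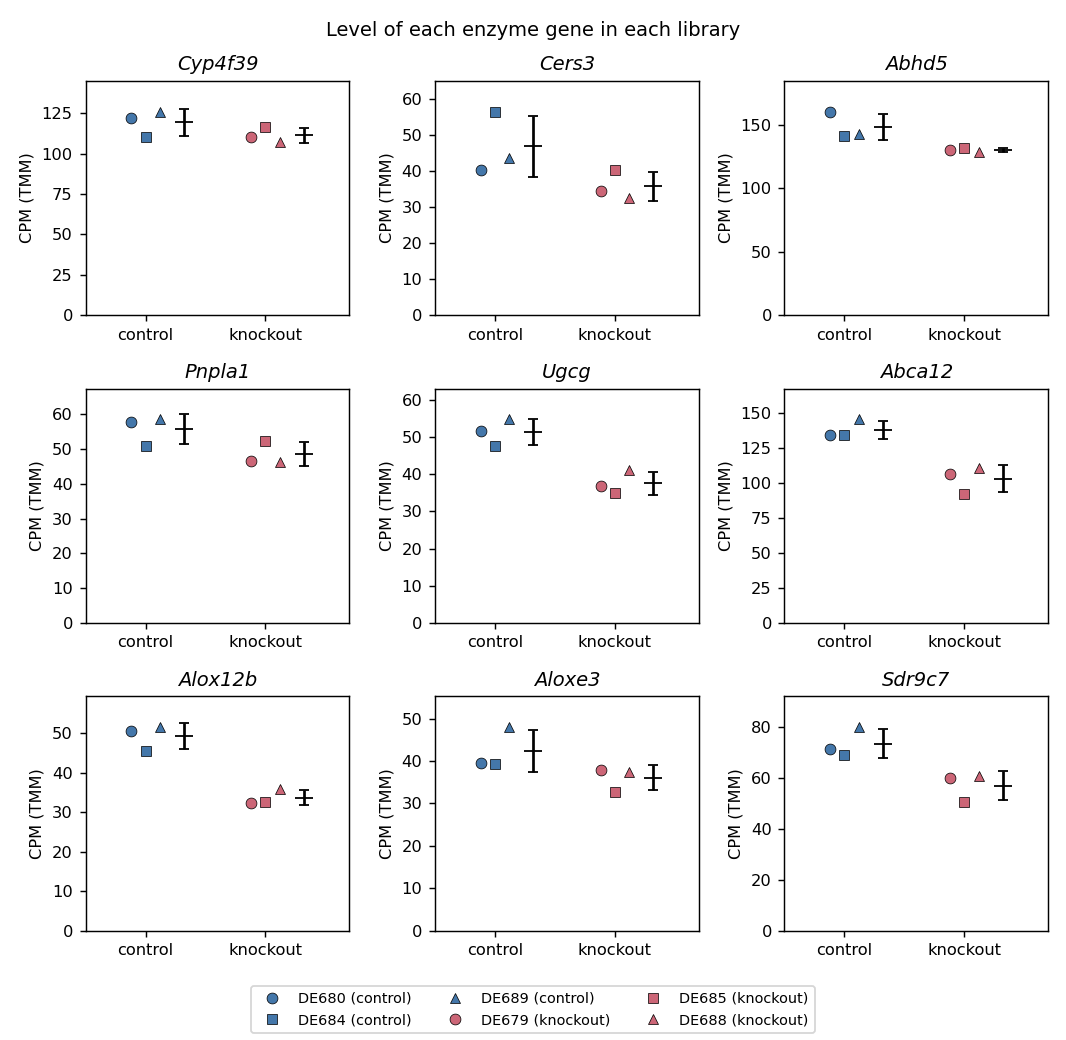
CPM with TMM scaling of each of the 9 genes (vertical axis, from 0) in the 3 control and 3 knockout libraries; each point is a library, and the bar beside the points is the mean with its SD. The groups are apart for Alox12b, where the knockout libraries reach 35.9 CPM and the lowest control has 45.4, and they overlap for Cyp4f39 and Pnpla1.

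The stretches before the start of 4 members are shown, for the 2 that fell (Alox12b and Abca12) and for the 2 whose groups overlapped (Cyp4f39 and Pnpla1). They come from RefSeq's promoter windows (GRCm38.p6), were matched by symbol, and are written 5′ to 3′ on the gene's strand. Windows were found for 8 of the 9 genes, and the window searched was the 250 bases before RefSeq's start. The stretch for Alox12b was shortened to the 167 bases before its start in GENCODE. By GENCODE's starts, which the coordinates of genes below follow, the windows of Abhd5 and Sdr9c7 also end inside the gene, and that of Ugcg (4:59189300-59189549) lies wholly inside it. Capitals mark a GC box (GGGCGG) or a match to a core bound by Klf factors (GGGNGTGG), on either strand.
Alox12b, chr11:69156822-69156988, plus strand: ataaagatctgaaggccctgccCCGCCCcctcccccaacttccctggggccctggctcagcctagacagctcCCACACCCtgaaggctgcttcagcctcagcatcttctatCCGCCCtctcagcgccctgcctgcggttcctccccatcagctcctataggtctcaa
Abca12, chr1:71414911-71415160, minus strand: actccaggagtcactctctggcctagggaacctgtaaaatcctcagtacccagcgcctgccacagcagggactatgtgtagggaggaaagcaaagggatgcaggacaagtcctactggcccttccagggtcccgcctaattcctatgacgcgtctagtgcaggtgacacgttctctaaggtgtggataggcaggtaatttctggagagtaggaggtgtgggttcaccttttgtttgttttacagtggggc
Cyp4f39, chr17:32452473-32452722, plus strand: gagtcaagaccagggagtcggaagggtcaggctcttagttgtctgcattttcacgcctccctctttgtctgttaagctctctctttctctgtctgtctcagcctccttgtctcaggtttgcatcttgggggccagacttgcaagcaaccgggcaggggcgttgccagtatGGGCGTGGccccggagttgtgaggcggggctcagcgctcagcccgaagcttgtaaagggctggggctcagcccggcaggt
Pnpla1, chr17:28858161-28858410, plus strand: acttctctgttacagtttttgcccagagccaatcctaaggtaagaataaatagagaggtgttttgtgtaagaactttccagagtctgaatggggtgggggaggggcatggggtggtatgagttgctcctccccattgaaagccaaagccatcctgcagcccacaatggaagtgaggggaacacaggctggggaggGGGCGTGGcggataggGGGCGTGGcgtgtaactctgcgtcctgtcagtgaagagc

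Both motifs were chosen after the windows had been seen. A GC box was found in 3 of the 8 windows (Ugcg, within the gene by GENCODE, Abhd5 and Alox12b) and in 32.7% of all 32851 windows of this length. The Klf core was in 3 of 8 (Alox12b, Pnpla1 and Cyp4f39) and in 15.9% of all. Matches to a Grhl motif (AACNGGTT), an AP-1 motif (TGANTCA) and a Gli motif (TGGGTGGTC), each searched on both strands, were in 0 of the 8 windows, and in 1.79%, 6.75% and 0.225% of all. Alox12b held a Klf core as Cyp4f39 and Pnpla1 did, and Abca12 held neither motif. Base composition varied widely, from 49.6% G or C in the windows of Cers3 and Sdr9c7 to 80.4% in that of Ugcg, which lies inside the gene by GENCODE, beside a median of 52.4% over all windows.

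The first steps build the ceramide with its very long fatty acid. Cyp4f39, the cytochrome P450 that hydroxylates the far end of that fatty acid and the mouse counterpart of human CYP4F22, lies at 17:32452723-32493320 (GRCm38, plus strand). DE679, DE685 and DE688 held 111, 117 and 107 CPM, and DE680, DE684 and DE689 held 122, 110.2 and 126 CPM. Its groups overlapped, since DE685 was above the control DE684, and its fitted change, −0.10 on the log2 scale with an SE of 0.07, was the smallest of the 9 (edgeR adjusted p 0.463). It was −0.06 without DE689, −0.16 without DE684 and −0.19 without DE684 and DE685. Cers3, the ceramide synthase that joins such fatty acids to the sphingoid base (7:66743504-66823691, plus strand), had 34.4, 40.3 and 32.6 CPM in DE679, DE685 and DE688 and 40.4, 56.5 and 43.7 CPM in DE680, DE684 and DE689. Its groups were separated only by the gap between DE685 and DE680, and DE684 stood highest. The change of −0.39 (SE 0.14) did not pass (edgeR adjusted p 0.196), and it was −0.24 without DE684. The edgeR adjusted p was 0.0427 with the block of neighbouring tags and 0.0440 with the sex covariate.

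The next pair of proteins attaches linoleic acid. Pnpla1 is the transacylase that moves linoleate from triglyceride to the ceramide, and Abhd5 is its cofactor, which also activates triglyceride lipase elsewhere. Abhd5 (9:122351608-122381524, plus strand) had 129.9, 131 and 128 CPM in DE679, DE685 and DE688. The controls DE680, DE684 and DE689 had 160.2, 141 and 143 CPM. The 3 knockout libraries were close together and all below the controls, averaging 129.8 ± 1.51 CPM beside 148 ± 10.5 CPM (SD, n = 3 each). Even so its change was small, −0.19 with an SE of 0.06, and did not pass (edgeR adjusted p 0.174). Pnpla1 (17:28858411-28890309, plus strand) had 46.7, 52.5 and 46.4 CPM in these knockout libraries and 57.8, 51.0 and 58.6 CPM in these controls, in the same order. DE685 was again above DE684, so the groups overlapped, and the change was −0.20 (SE 0.08, edgeR adjusted p 0.245), or −0.32 without DE684 and DE685. Exons of Abhd5 and Pnpla1 overlap an antisense gene each, A730085K08Rik over 950 bases and Pnpla1os over 644 bases. The use of strand in counting is not given in the sources used here, so a share of their counts may belong to those genes.

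Ugcg and Abca12 act at the lamellar body. Ugcg, glucosylceramide synthase, adds glucose to the ceramide before it is packed (4:59189257-59222833, plus strand). The knockout libraries DE679, DE685 and DE688 held 36.8, 34.9 and 41.0 CPM, and the controls DE680, DE684 and DE689 held 51.7, 47.7 and 54.8 CPM. Every knockout library lay below every control, and the change of −0.45 (SE 0.09) missed the threshold (edgeR adjusted p 0.0548), and passed with the block of neighbouring tags (edgeR adjusted p 0.0149). Abca12, the carrier that loads glucosylceramide into lamellar bodies and the gene of harlequin ichthyosis in humans, spans 1:71242276-71414910 on the minus strand. Its levels were 107, 92.5 and 111 CPM in DE679, DE685 and DE688 and 134, 134 and 146 CPM in DE680, DE684 and DE689. The lowest control was thus well above the highest knockout library. Abca12 fell by 0.42 on the log2 scale (SE 0.08), or fell by 25.1%, with an edgeR adjusted p of 0.0499 that sits at the threshold. It passed in 0 of the 6 fits that left out 1 library, DE679, DE685, DE688, DE680, DE684 or DE689, where edgeR adjusted p ran from 0.0898 to 0.156. The DESeq2 Wald test gave both genes a lower adjusted p, 0.00155 for Ugcg and 0.00044 for Abca12. It called 2.14% of all genes lower, against 0.357% in the main edgeR fit. Of 8 other methods, filters and scalings, DESeq2 among them, 4 called Abca12. Its adjusted p reached 0.0602 in edgeR with upper-quartile factors.

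Alox12b, Aloxe3 and Sdr9c7 oxidise the linoleate in turn. Alox12b is the 12R-lipoxygenase that adds oxygen to it (11:69156989-69169792, plus strand). Its level was 32.4, 32.6 and 35.9 CPM in DE679, DE685 and DE688, while DE680, DE684 and DE689 held 50.5, 45.4 and 51.6 CPM. Knockout libraries averaged 33.6 ± 1.95 CPM and controls 49.2 ± 3.29 CPM (SD, n = 3 each), so the groups were far apart beside their spread. Alox12b fell by 0.55 on the log2 scale (SE 0.08), or 31.6%, with an edgeR adjusted p of 0.0225. All 8 other methods, filters and scalings called it, with adjusted p from 1.4e-05 to 0.0245. With 1 library left out it passed only without DE684 (edgeR adjusted p 0.0354). It did not pass without DE679, DE685, DE688, DE680 or DE689, with adjusted p up to 0.116 and log2 changes that stayed between −0.60 and −0.51 over all 6 such fits.

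Aloxe3, the epidermal lipoxygenase that turns the product of Alox12b into an epoxy alcohol, is its neighbour on the chromosome: it ends 7.87 kb before Alox12b starts (11:69125896-69149115, plus strand). Its levels were 38.0, 32.6 and 37.5 CPM in DE679, DE685 and DE688 and 39.7, 39.2 and 48.1 CPM in DE680, DE684 and DE689. The groups were separated by a narrow gap between DE679 and DE684. The change of −0.23 (SE 0.10) did not pass (edgeR adjusted p 0.281), and it was −0.13 without DE689. Sdr9c7, the dehydrogenase that oxidises this epoxy alcohol to a ketone able to bind protein (10:127898518-127911761, plus strand), had 59.9, 50.4 and 60.6 CPM in those knockout libraries and 71.5, 68.9 and 80.0 CPM in those controls, in the same order. Its groups did not overlap, and the change was −0.37 (SE 0.09, edgeR adjusted p 0.105); the DESeq2 Wald test called it (adjusted p 0.0197), as did edgeR with the block of neighbouring tags (adjusted p 0.0258).

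The log2 ratio of Alox12b to Aloxe3 compares the neighbouring lipoxygenases within each library. In DE679, DE685 and DE688 it was −0.23, 0 and −0.066, and in DE680, DE684 and DE689 it was 0.35, 0.21 and 0.10. The ratio was lower in every knockout library than in any control, by 0.32 in the mean, and an exact two-sided permutation test over the 6 libraries gave p = 0.1, the smallest that 3 against 3 can give. The log2 ratio of Alox12b to Cyp4f39, the members with the largest and the smallest change, averaged −1.73 ± 0.13 over the knockout libraries and −1.28 ± 0.0096 over the controls (SD, n = 3 each). It had the same exact permutation p of 0.1. Both pairs, 2 in all, were chosen after the values were seen, and the p adjusted over them is also 0.1. That adjustment does not cover the other pairs of members that could have been chosen. Picking the largest and the smallest change itself favours separation of the ratio to Cyp4f39, so its p is no support for a difference.

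**Figure D2:**
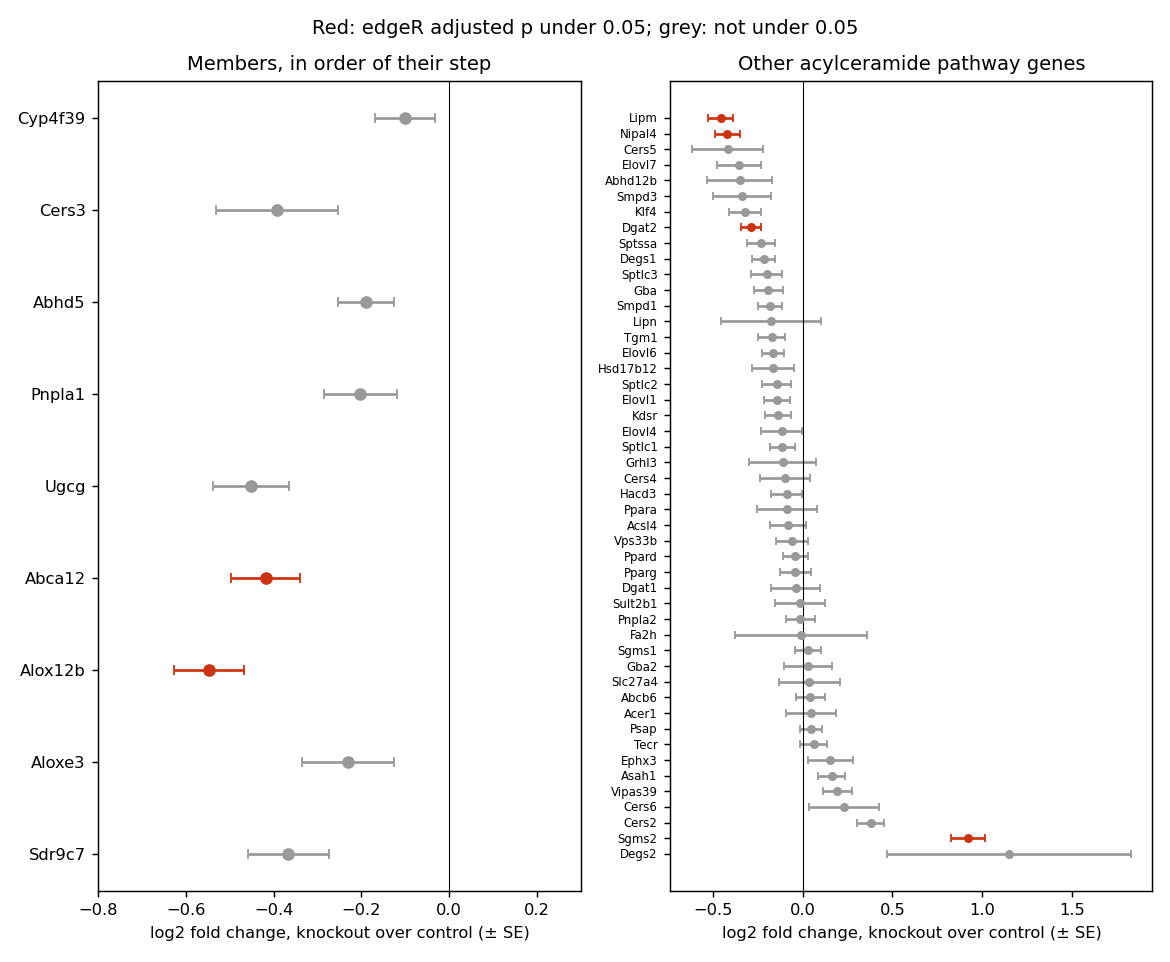
Log2 fold change, knockout over control, with its SE (horizontal axis) for the 9 members in the order of their step (left) and for the 48 other acylceramide pathway genes tested (right). Red points have an edgeR adjusted p under 0.05: Abca12 and Alox12b on the left, and Lipm, Nipal4, Dgat2 and Sgms2 on the right. All 9 members lie below 0.

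Per kilobase of merged exon, Cyp4f39 was the most abundant member, with 41.8 ± 2.89 CPM per kb in the control (SD, n = 3). Abhd5 followed with 24.9 ± 1.77, Sdr9c7 with 24.2 ± 1.92, Alox12b with 20.2 ± 1.35 and Cers3 with 14.4 ± 2.62. Pnpla1 had 11.5 ± 0.868, Ugcg 9.86 ± 0.682, Abca12 9.32 ± 0.451 and Aloxe3 6.62 ± 0.780 CPM per kb. These are levels per length in the control, and neighbours in this order overlapped over the libraries for Abhd5 and Sdr9c7 and for Ugcg and Abca12. The knockout had the same order of means, from 39.0 ± 1.69 CPM per kb for Cyp4f39 to 5.64 ± 0.464 for Aloxe3. There Abhd5 and Sdr9c7 no longer overlapped, while Cers3 and Pnpla1 did. The lengths come from GENCODE M21, whose gene starts equal those of the authors' table for all 9 genes.

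Library order was shared only in part across the members. Among the knockout libraries DE685 was lowest for Ugcg, Abca12, Aloxe3 and Sdr9c7. For Cyp4f39, Cers3, Abhd5 and Pnpla1 it was the highest of them. DE689 was the highest library for 7 of the 9 genes, DE680 for Abhd5 and DE684 for Cers3. DE685 and DE688 were each lowest for 4 genes, and DE679 for Alox12b. When the libraries with Y-linked transcripts were compared with each other, DE685 over DE684, the log2 ratio was negative for 7 members, from −0.54 for Abca12 to −0.11 for Abhd5. It was positive for Cyp4f39 (0.082) and Pnpla1 (0.043). Among the 4 libraries with Xist all 9 ratios of the means were negative, from −0.58 for Alox12b to −0.19 for Cyp4f39. The difference between these effects was tested as an interaction in edgeR and passed for 0 of the 9 genes (adjusted p 0.9999 for each; Pnpla1 alone had an unadjusted p under 0.05, 0.0330). An edgeR fit on the 4 Xist libraries called 0 members, with 0.557% of all genes called. The lowest adjusted p of a member there was 0.0711, for Alox12b.

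**Figure D3:**
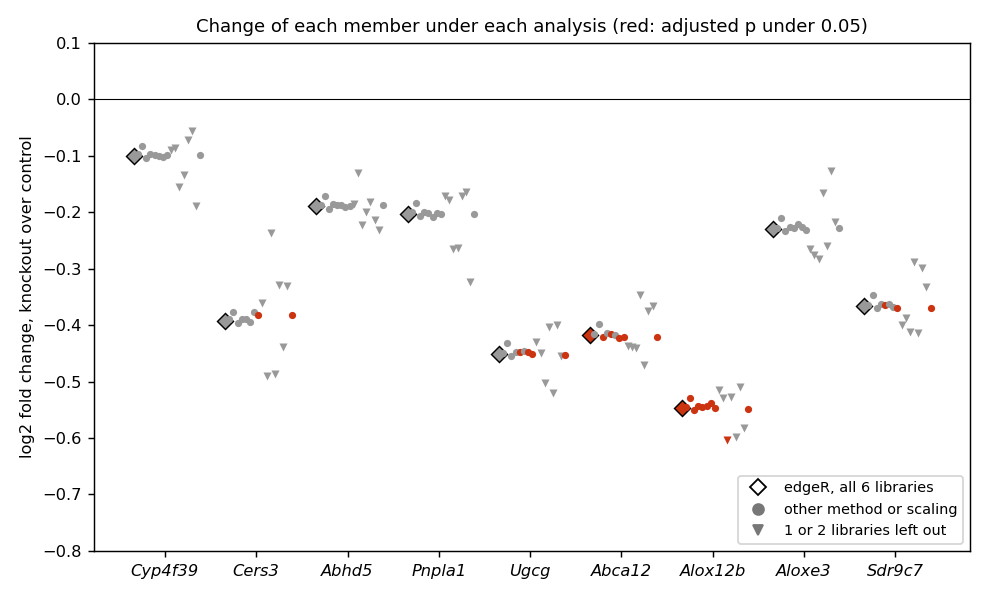
Log2 fold change of each member, knockout over control (vertical axis), in the fit of all 6 libraries with edgeR (diamonds), under other methods, filters or scalings (circles) and with 1 or 2 libraries left out (triangles). Red marks an adjusted p under 0.05; all points lie below 0, and Alox12b has more red points than any other member, with others in Abca12, Ugcg, Sdr9c7 and Cers3.

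Members were set beside the genes most like them in family. Of 23 tested relatives, the other ceramide synthases, lipoxygenases, Cyp4f enzymes, patatin-like phospholipases and Abca transporters, 6 had a negative change, against all 9 members. None of the 23 passed in edgeR, where 1.6% of all genes were called in either direction. An unadjusted p under 0.05 was found for 7, beside 1404 genes lower and 1527 higher of all 15422 tested. DESeq2 called 4, and 6.05% of all genes. Among the ceramide synthases, Cers2, which makes very-long-chain ceramides in many tissues, had 33.0, 31.1 and 32.1 CPM in DE679, DE685 and DE688 against 25.0, 23.3 and 25.7 CPM in DE680, DE684 and DE689. Its change of 0.38 (SE 0.07, edgeR adjusted p 0.0565) thus lay on the other side of 0 from that of Cers3. Of the 4 ceramide synthases tested besides Cers3, Cers2 alone had an unadjusted p under 0.05 in edgeR. The 4 were split in sign: Cers6 (0.23) was also above 0, and Cers4 (−0.10) and Cers5 (−0.42) were below 0, as Cers3 was. Cers2, Cers5 and Cers6 were named after their values were seen. Alox12e, an epidermal-type lipoxygenase named after its values were seen, had 93.2, 52.9 and 97.6 CPM in those knockout libraries and 38.6, 23.1 and 37.8 CPM in those controls, in the same order. As for Cers2, the groups of Alox12e did not overlap. Its change was 1.29 (SE 0.27, edgeR adjusted p 0.0643), opposite in sign to those of Alox12b and Aloxe3.

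The list of other acylceramide pathway genes covers fatty acid elongation, sphingoid base and ceramide synthesis, sphingomyelin and glucosylceramide turnover, triglyceride supply, lamellar body traffic and the regulators of these genes. It named 50 genes, of which 48 were in the table and tested. Over these, 3 fell and 1 rose, where 0.357% of all genes tested were called lower and 1.24% higher. A negative change was found for 34 (70.8%, against 50.7% of all genes), and the median was −0.093. Groups did not overlap for 9 that were lower and 4 that were higher. Over all 15422 genes tested this held for 1971 that were lower and 1972 that were higher. Lipm, a lipase of the granular layer, fell most, with 40.7, 37.3 and 42.4 CPM in DE679, DE685 and DE688 against 57.1, 54.6 and 53.8 CPM in DE680, DE684 and DE689 (change −0.46, SE 0.07, edgeR adjusted p 0.0267). Nipal4 (ichthyin), a membrane protein whose loss causes ichthyosis, had 32.1, 35.2 and 34.5 CPM against 44.9, 44.2 and 46.9 CPM and fell by 0.42 (SE 0.07, edgeR adjusted p 0.0354). Dgat2, which makes the triglyceride that can supply linoleate, had 227, 229 and 228 CPM against 267, 285 and 282 CPM, a fall of 0.29 on the log2 scale (SE 0.05, edgeR adjusted p 0.0469). In each of these genes the 3 knockout libraries were below all controls, and for Dgat2 they were also close together. With any 1 of the 6 libraries left out, Lipm, Nipal4 and Dgat2 passed in 0 of 6 fits, with edgeR adjusted p from 0.0665 to 0.195.

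Sgms2, a sphingomyelin synthase, which takes ceramide into another lipid, was the single pathway gene that rose. It had 22.7, 21.8 and 24.5 CPM in DE679, DE685 and DE688, against 13.04, 11.6 and 11.9 CPM in DE680, DE684 and DE689. The change of 0.92 (SE 0.09, edgeR adjusted p 0.00556) was the largest called in the pathway, and Sgms2 passed in all 6 fits that left out 1 library (adjusted p up to 0.0393). With the block of neighbouring tags, 8 pathway genes were called in edgeR, 6 lower and 2 higher, beside 4.56% of all genes in either direction. The most abundant genes of the list did not pass. Elovl6, a fatty acid elongase, had 1997 to 2092 CPM in knockout libraries and 2219.8 to 2413 CPM in controls, and its change was −0.17 (SE 0.06, edgeR adjusted p 0.206). Klf4, a transcription factor of barrier formation, had 791, 917 and 761 CPM in knockout libraries and 962, 1092 and 1033 CPM in controls (change −0.32, SE 0.09, edgeR adjusted p 0.119). Elovl4, the elongase that makes the longest fatty acids of the barrier, had 731 to 972 CPM against 899 to 1037 CPM, and its groups overlapped (−0.12, edgeR adjusted p 0.622). Cers4 (−0.10) and Psap, the saposin precursor needed for glucosylceramide breakdown (0.05), overlapped as well. Fa2h, a fatty acid hydroxylase, followed the Y-linked libraries and not the genotype: it had 1446 CPM in DE685 and 1369 in DE684, but 661 to 756 CPM in the other 4 libraries.

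**Figure D4:**
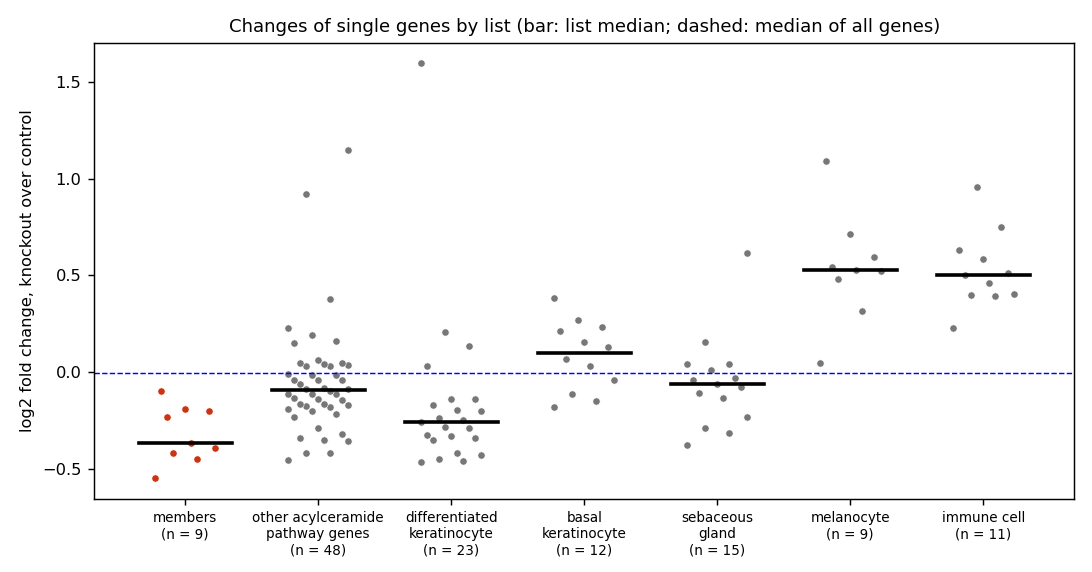
Log2 fold change of single genes, knockout over control (vertical axis), for the members and for lists of related genes and cell type markers, with the number of genes tested under each name. Thick bars are list medians and the dashed line is the median of all genes; the members' median is −0.37, the differentiated keratinocyte markers' −0.26 and the basal keratinocyte markers' 0.099.

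Because acylceramide genes are active in the differentiating layers, markers of the layers are given beside them. Of 23 differentiated keratinocyte markers tested, 19 had a negative change (82.6%, against 50.7% of all genes), and the median was −0.26. Those lower with no overlap were 8, beside 12.8% of all genes. None of the 23 was called lower in edgeR, and 10 were lower at an unadjusted p under 0.05, beside 9.1% of all genes. Krt77 alone rose (1.60, SE 0.28, edgeR adjusted p 0.0395). Their summed CPM was 32599 to 42483 in the knockout and 37486 to 60406 in the control. These sums overlapped, and most of each is Krt10, Krt2 and Krt1. The 8 markers lower with no overlap were Krtdap, Sbsn, Calm4, Dsc1, Lor, Lce1a1, Lce1b and Klk7, named after their values were seen. Calm4, a calmodulin-like protein of the granular layer named after its values were seen, had a change close to that of Ugcg (−0.47, SE 0.09, edgeR adjusted p 0.0560). Of 12 basal keratinocyte markers, 8 had a positive change (median 0.099) with summed CPM of 33651 to 37847 against 29747 to 34761. In edgeR 0 passed, and 3 were higher at an unadjusted p under 0.05, beside 1527 of all 15422 genes. The part of layer composition in the members' lower levels was not tested.

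Markers of other cells were also measured. All 9 melanocyte markers had a positive change (median 0.53, summed 88.3 to 129 CPM against 61.4 to 89.1 CPM). All 11 tested immune cell markers did too (median 0.50, 182 to 286 CPM against 115 to 240.2 CPM). Of all 15422 genes tested, 7608 had a positive change. In edgeR 0 of either list passed. At an unadjusted p under 0.05, 3 and 1 were higher, beside 1527 of all 15422 genes. The 1 gene of the immune list was Epcam, named after its values were seen (0.46, edgeR adjusted p 0.0901). Epcam was the largest part of the immune sum in each library, with 114 to 135 CPM in knockout libraries and 77.8 to 103 CPM in controls. Which cells its RNA came from was not tested, so that sum need not reflect immune cells alone. Sebaceous gland markers had a median of −0.061 over 15 genes, summed to 9033 to 10816 CPM against 9690 to 10961 CPM, and Dgat2, which is also in the pathway list, was the only one called. Fibroblast markers summed to 936 to 1061 CPM against 509 to 620.3 CPM. Of these 8 genes 2 were called, both higher: Dcn (1.90) and Postn (0.75), whose CPM makes up most of the sums. Beside these calls and that of Dgat2, 1.24% of all genes tested were called higher and 0.357% lower. Over the 8 genes the median change was −0.17 and 4 were negative, Col1a1 (−0.38), Col1a2 (−0.42), Col3a1 (−0.54) and Fbn1 (−0.99). Thy1 (0.85, edgeR adjusted p 0.0560), higher with no overlap, and Pdgfra (0.035) were positive. All of these were named after their values were seen. Of 7 adipocyte markers listed, 3 were tested, and they summed to 15.5 to 26.7 CPM against 17.3 to 27.3 CPM. Skeletal muscle markers, 2 tested, summed to at most 2.94 CPM in any library. The part of these cells in the members' values was not tested.

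Genes outside the pathway whose pattern over the 6 libraries was most like that of the members were found from log2 CPM profiles centred and scaled to unit SD. The measure was the root mean square difference from the mean profile of the 9 members, over 9672 genes with a mean of at least 10 CPM. Smarca5 (0.161), Sec11c (0.174), Esrp1 (0.178), Psmd9 (0.180) and Rsl1d1 (0.181) were nearest, in units of SD, beside a median of 1.10 over those genes. Among the members themselves the same difference was smallest for Alox12b (0.207) and largest for Cers3 (0.785). Each member is part of that mean profile, which lowers its own difference, so these values cannot be set against those of other genes. Scaling removes the size of a change: the 5 genes had log2 changes from −0.28 to −0.13.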

How the data were processed

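RNA was sequenced as polyadenylated RNA in stranded libraries from 6 samples of tail keratinocytes, 3 per genotype. Per the labels' protocols, epidermis was freed with trypsin and dispase overnight and cells were strained and lysed. Estimated counts per gene, not all whole numbers, were deposited by the authors, along with a normalized signal per gene (column sums of 969805 to 1026369), whose method is not given in the sources used here. The submitters' processing notes list bcl2fastq 2.20, cutadapt 1.18, STAR 2.7.0f, Partek and the build mm10, with no role stated; the counter, the annotation and the use of strand are not given in the sources used here. Per the file headers, the alignments had been sorted and their duplicates marked.

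Column names show the genotype but no sample title, so columns were assigned to groups only. Estimated counts were rounded, filtered with the filterByExpr defaults, scaled with TMM factors (0.975 to 1.03) and fitted with edgeR 4.0.16 (glmQLFit and glmQLFTest, genotype as the only term, R 4.3.3). Standard errors were derived from the fold change and the F statistic. Alternatives used DESeq2 1.42.0 (adjusted p-values given as NA were left out), limma 3.58.1 (voom, and the trend method on the deposited normalized signal, as log2 of the signal plus 1), other scalings and filters, a sex covariate read from Xist and Y-linked genes, and libraries left out. A block of libraries with neighbouring tags (DE679 with DE680, DE684 with DE685, DE688 with DE689) was added after seeing the data. No label states these to be pairs, and DE684 and DE685 are also the libraries with Y-linked transcripts. Deviations from the group means correlated across genes at 0.191, 0.340 and 0.376 within the pairs. Between other knockout and control libraries the values were −0.321 to −0.045. Such deviations cancel within each group, so positive values within pairs bring negative ones elsewhere by construction. Depth was 17157864 to 25344399 counts per library, where 3 counts are 0.117 to 0.173 CPM; such values cover counting error only, since no molecular identifiers are described.

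The members, gene lists and tests were chosen with earlier results of these data known. Genes named were the 9 members, every other pathway gene called and the 6 most abundant besides. Gpr161, Gli1, Ptch1 and the 5 genes of most similar profile were named too. Others are said to be named after their values were seen, or illustrate a marker list (Krt5, Krt10, Krt77).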

Additional observations from a re-analysis of the deposited data

How the results depend on the processing

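The negative sign of all 9 members held in each of 16 alternatives, and no change of a member or of the 4 called pathway genes was reversed. Counts of calls depended on the method; the cause was not tested. Against 2 members called, RLE size factors, upper-quartile factors, a mean of at least 1 CPM and limma-voom each gave 1 (Alox12b), limma trend 3 (Ugcg with an adjusted p of 0.0479), DESeq2 gave 4 (Alox12b, Abca12, Ugcg and Sdr9c7, with 2.14% of all genes called lower) and the sex covariate 5 (those 4 and Cers3, with 0.713% called lower). Among other pathway genes the count of 4 became 7 with DESeq2 and 7 with the sex covariate; Dgat2 missed the threshold with upper-quartile factors (adjusted p 0.0597) and with no filter (0.0552). Over all genes, 247 became 879 with DESeq2, 310 of them lower (35.3%, against 22.3%), and 409 with the sex covariate. Fits that left out 1 library called 69 to 121 genes, 0 to 1 member and 1 other pathway gene in each (1 to 1); fewer libraries lower such counts by construction. Without DE684 and DE685, an alternative added after seeing the data, 87 genes, 0 members and 1 pathway gene (Sgms2) were called. The columns carry no replicate numbers. The replicate block made from neighbouring tags, a pairing hinted at by the data and not by the labels, called 704 genes, 5 members and 8 other pathway genes. Since this block was adopted after seeing the same data, its calls are no separate support. Of 144 results for single members, 118 kept their side of the threshold, 17 were weaker and 9 stronger. Most of the 118 were members not called in the main fit that stayed uncalled. All 17 weaker results were for the 2 members called in the main fit. Alox12b was called in 10 of the 16 alternatives and Abca12 in 5 of 16. Each member had at least 565 counts in each library.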
